A study of Homo sapiens with 4 samples.

Results

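Expression of 10 transcriptional outputs of the ERK pathway was followed in ovarian cancer cells with a stable knockdown of GALNT3, the transferase that adds the initial sugar in mucin-type O-glycosylation. The genes are DUSP4, DUSP5, DUSP6, SPRY1, SPRY2, SPRY4, SPRED1, ETV4, ETV5 and PHLDA1. Every non-control probe whose accession belongs to one of them was taken, which gave 16 probes of the 41000 on the array. The set was chosen by the knockdown-over-control ratio of DUSP6, already known to be higher in the knockdown clones on these same arrays, in order to ask whether other ERK outputs rose with it. The knockdown-over-control values of the 10 genes are therefore given as a description, without a test.

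ERK is the last kinase of the RAS-RAF-MEK-ERK cascade, which relays signals from growth factor receptors to the nucleus. Active ERK induces genes that restrain it again, among them the dual specificity phosphatases that dephosphorylate it, and the Sprouty and SPRED proteins, which act upstream at the level of RAS and RAF. The ETS factors ETV4 and ETV5 are activators induced through the same route, and the set is widely used as a transcriptional readout of ERK activity in cancer cells.

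The cells were A2780s, an ovarian adenocarcinoma line. Dual-color Agilent arrays compared total RNA of 2 stable clones carrying a GALNT3 shRNA, named sh-G1 and sh-G2, with that of 1 mock-transfected clone (ctrl) that carries the pSilencer 4.1 puro vector, and all of these clones had been selected for 2 weeks in 5 μg/mL puromycin. Each knockdown clone was hybridized on 2 arrays with exchanged dyes, in Cy5 on replicate 1 and in Cy3 on replicate 2, so that there were 4 arrays, all on 1 slide. Both knockdown clones carry the same shRNA, each is a single clone, and the same ctrl clone lies behind every ratio, so that what is particular to that clone enters both comparisons and cannot be told apart from the knockdown. The labels spell the line of the ctrl clone as A27803 on some arrays. Values are log2 ratios of knockdown over ctrl after background correction and loess normalization. The 2 arrays of a clone were averaged, and SD is that between the 2 clones (n = 2). RNA came from whole cultures, in which fewer cells of a kind and less RNA per cell cannot be told apart.

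Of the 43376 non-control spots of an array, 88.1% to 97.0% exceeded background clearly for the knockdown clone and 95.9% to 97.6% for ctrl, and 39152 probes were kept. The single probe for GALNT3 lay near background, with log2 ratios of -0.09 and 0.08 in sh-G1 and 0.12 and -0.14 in sh-G2. It was well above background in the knockdown clone on 2 of 4 arrays and in ctrl on 4 of 4. These arrays alone did not check the knockdown, and the clones are named as they were labelled. Among 9 epithelial or ovarian carcinoma markers, the keratins KRT8 and KRT18 were lower in the knockdown clones, with means of -1.03 and -2.32 on the log2 scale (limma adjusted p = 0.032 and 0.036), and the other 7 did not pass the test. Among 5 fibroblast markers measured, PDGFRA passed the test and all had a mean below 0, down to -3.31 for LUM. All 10 leukocyte and endothelial markers measured lay between -0.07 and 0.04. The probes of all these markers were well above background in ctrl, so this flag did not separate cell types, and the part of these shifts in the results below was not tested.

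DUSP6, the cytoplasmic phosphatase specific for ERK1 and ERK2, was higher in both knockdown clones. Its probe (A_23_P139704) had log2 ratios of 1.61 and 2.40 in sh-G1 and of 0.78 and 1.58 in sh-G2. The median spot intensity of the knockdown clone was 19921 against 11139 in ctrl on the first sh-G1 array and 26112 against 5024.5 on the second. For sh-G2 it was 12653 against 11434 and then 18814.5 against 5772.5, in each case before dye normalization. All 4 ratios were above 1.5-fold, and the lowest array of sh-G1 lay just above the highest of sh-G2. The mean was 2.00 in sh-G1 and 1.18 in sh-G2, or 4.01-fold and 2.26-fold, and the mean of the clones was 1.59 ± 0.58 (SD, n = 2). Of all probes kept, 99.9% had a lower mean. These values placed the gene in the set and are no finding about it.

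The DUSP6 promoter is printed because the ratio of DUSP6 chose the set. It spans chr12:89352452-89352751 of GRCh38.p14 on the minus strand, from 250 bases before to 50 after the RefSeq start, 5′ to 3′. Capitals mark every GGAA and its reverse complement TTCC, the core that ETS factors recognize, of which this window holds 6.
DUSP6: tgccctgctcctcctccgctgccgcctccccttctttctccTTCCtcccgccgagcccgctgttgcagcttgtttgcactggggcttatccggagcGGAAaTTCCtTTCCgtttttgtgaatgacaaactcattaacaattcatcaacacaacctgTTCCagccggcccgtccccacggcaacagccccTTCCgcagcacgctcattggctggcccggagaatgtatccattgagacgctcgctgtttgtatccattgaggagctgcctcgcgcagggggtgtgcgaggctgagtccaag

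The other phosphatases of the set had smaller ratios than DUSP6 on every array. DUSP4, a nuclear phosphatase of ERK and other MAP kinases, had log2 ratios of -0.13 and 0.02 in sh-G1 and of -0.19 and 0.01 in sh-G2. Its arrays lay on both sides of 0 in each clone, with a mean of -0.07 ± 0.02 (SD, n = 2). DUSP5, a nuclear phosphatase specific for ERK, gave 0.34 and 0.32 in sh-G1 and 0.10 and -0.13 in sh-G2. Both sh-G1 arrays of DUSP5 were above both sh-G2 arrays, none reached 1.5-fold, and the mean was 0.16 ± 0.25 (SD, n = 2).

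Among the Sprouty and SPRED genes, whose products dampen receptor signaling to ERK, SPRY4 had arrays on both sides of ctrl and the others stayed near it. SPRY4 (A_24_P269062) had log2 ratios of 0.35 and 0.18 in sh-G1 and of -0.70 and -0.22 in sh-G2. Its clones thus lay on opposite sides of 0 without overlap, and its mean of -0.10 ± 0.51 (SD, n = 2) describes neither of them. SPRY1 gave -0.05 and 0.21 in sh-G1 and -0.06 and 0.10 in sh-G2. SPRY2 gave -0.02 and 0.21 in sh-G1 and 0.06 and 0.17 in sh-G2. In each clone the SPRY1 and SPRY2 ratios were higher on the array with the clone in Cy3, and no array reached 1.5-fold. The 2 probes of SPRED1, an inhibitor that brings neurofibromin to RAS, had means of 0.07 ± 0.03 and 0.11 ± 0.07 (SD, n = 2), with single arrays from -0.14 to 0.26. The sign of the SPRED1 mean turned with the ratios of the series matrix, which lack sh-G1 replicate 2, to -0.16 and -0.07.

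The SPRY4 promoter is shown because, of the members with clones on opposite sides of 0, SPRY4 had the largest difference between them. DUSP5, ETV5 and 1 PHLDA1 probe also had clones of opposite sign. For DUSP5 in sh-G2 (-0.02) and this PHLDA1 probe in sh-G1 (0.004) the value was close to ctrl. The share of all probes with clones of opposite sign was not counted, and nothing is read from these signs. The SPRY4 difference, given below, did not pass the limma test. Its promoter window is described next. It spans chr5:142324198-142324497 of GRCh38.p14 on the minus strand, over the same 250 bases before and 50 after the RefSeq start, 5′ to 3′. Capitals mark GGAA and TTCC as above, with 4 matches against 6 in DUSP6.
SPRY4: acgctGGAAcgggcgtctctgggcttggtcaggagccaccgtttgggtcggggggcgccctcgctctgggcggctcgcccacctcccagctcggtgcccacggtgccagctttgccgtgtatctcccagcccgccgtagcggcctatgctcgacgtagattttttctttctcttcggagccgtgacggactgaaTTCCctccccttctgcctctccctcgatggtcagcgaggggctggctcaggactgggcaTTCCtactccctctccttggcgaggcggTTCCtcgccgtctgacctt

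RefSeq promoter windows were at hand for 6 of the 10 genes, in 9 windows. The core GGAA, searched on both strands, occurred in all 9 windows and in 95.5% of the 35116 windows of the table. The longer ETS site CCGGAAGT occurred in none of the 9 windows, against 4.14% of all. The octamers TGAATGAA and TGAATGGA, bound by the repressor CIC that ERK inactivates, were also in none, against 1.65% and 1.03% of all. The same held for the AP-1 site TGANTCA (7.71% of all) and the cyclic AMP response element TGACGTCA (1.85% of all). Each motif was searched as these exact letters on both strands, and the site CCGGAAGT contains the core. No match says only that these letters were not in these windows.

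The ETS factor ETV4 came closest to DUSP6, at a much smaller size. One ETV4 probe (A_24_P416346) had log2 ratios of 0.60 and 0.80 in sh-G1 and of -0.10 and 0.56 in sh-G2. The other ETV4 probe (A_23_P431776) gave 0.34 and 0.79 in sh-G1 and -0.39 and 0.70 in sh-G2. Both probes were thus higher than ctrl on 3 of 4 arrays and lower on the sh-G2 array with the clone in Cy5, and their means were 0.47 ± 0.33 and 0.36 ± 0.29 (SD, n = 2). Leaving out that sh-G2 array moved the means to 0.63 for both probes, and leaving out the other sh-G2 array moved them to 0.30 and 0.09.

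ETV5 was likewise lowest on the sh-G2 array with the clone in Cy5, and all its ratios were small. Its brighter probe (A_32_P30649) gave 0.28 and 0.31 in sh-G1 and -0.37 and 0.23 in sh-G2. The dimmer probe (A_23_P9836) gave 0.15 and 0.27 in sh-G1 and -0.42 and 0.21 in sh-G2. Again 3 of 4 arrays were above 0, and the means of 0.11 ± 0.26 and 0.05 ± 0.22 (SD, n = 2) turned to -0.04 and -0.10 without sh-G2 replicate 2.

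PHLDA1, a pleckstrin homology domain protein induced by growth factors, lay on the other side of ctrl. Its brightest probe (A_23_P76450) had log2 ratios of -0.57 and -0.06 in sh-G1 and of -0.86 and -0.73 in sh-G2. All 4 arrays were below 0, the sh-G2 arrays past 1.5-fold, and the mean was -0.55 ± 0.34 (SD, n = 2). A second probe (A_24_P943597) was below 0 on all 4 arrays too, at -0.33, -0.01, -0.31 and -0.06, with a mean of -0.18 ± 0.01. The other 2 probes had means of -0.14 ± 0.20 and -0.07 ± 0.09 with arrays on both sides of 0. The 4 probes of PHLDA1 thus shared the sign of the mean and not its size, and the sign of the dimmest (A_23_P338912) turned in 3 of 12 alternatives, to at most 0.07.

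**Figure D1:**
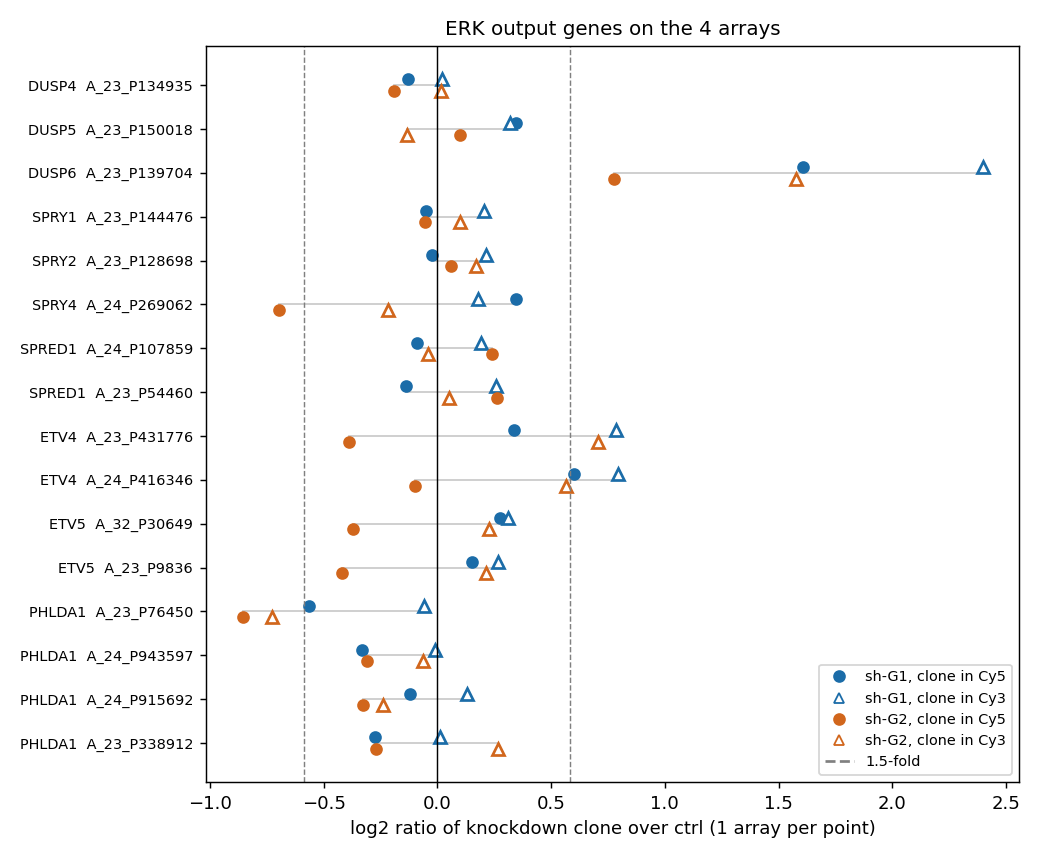
Log2 ratio of knockdown clone over ctrl (horizontal axis) for the 16 probes of the 10 ERK output genes, 1 point per array, with color for the clone and shape for the dye of the clone; dashed lines mark 1.5-fold. The 4 DUSP6 points, from 0.78 to 2.40, lie to the right of 1.5-fold, and all 60 points of the other probes lie between -0.86 and 0.80.

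Over the whole set, 1 of 16 probes, that of DUSP6, was at least 1.5-fold higher than ctrl on all 4 arrays, as were 0.23% of the probes kept, and 0 were lower by as much, against 0.919%, or 1.15% in either direction. The rule used this contrast, and nothing is read from these counts. Apart from DUSP6, the 15 probes of the other 9 genes had means from -0.55 to 0.47 and a median of 0.05, beside -0.00 for all probes kept. Counting DUSP6, 10 means were above 0 and 6 below. On all 4 arrays 1 probe was above 0, again DUSP6, and 2 were below 0, both of PHLDA1, against 6.21% and 9.04% of all probes. In sh-G1 alone, 1 further probe (ETV4, A_24_P416346) was at least 1.5-fold higher on both arrays, against 0.442% of all probes, and 0 were lower, against 1.24%. In sh-G2 alone there was none besides DUSP6, against 0.552%, and 1 probe (PHLDA1, A_23_P76450) was at least 1.5-fold lower, against 1.42%.

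**Figure D2:**
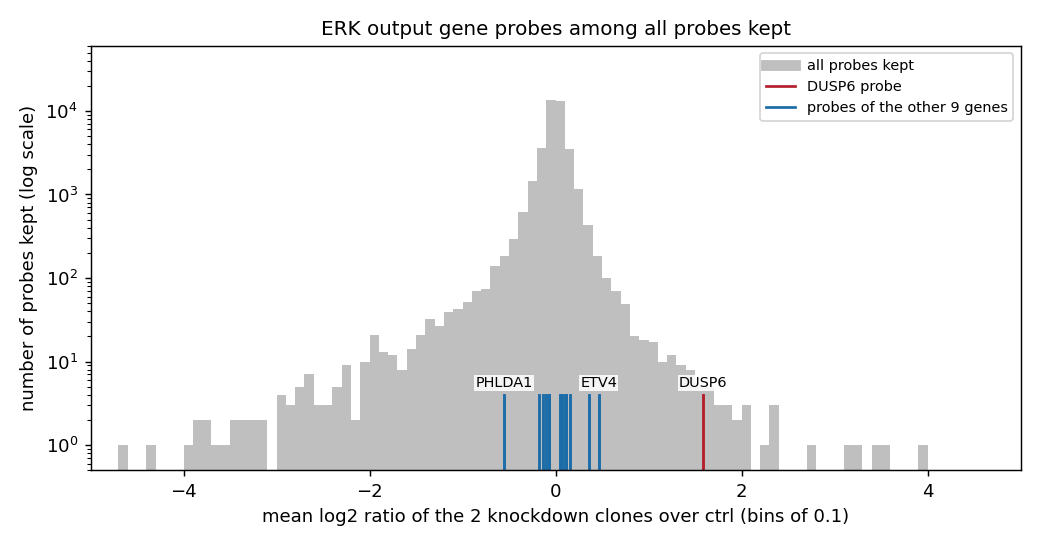
Distribution of the mean log2 ratio of the 2 knockdown clones over ctrl for the 39152 probes kept, in bins of 0.1 with the number of probes on a log axis; vertical ticks mark the 16 probes of the ERK output genes. The DUSP6 tick at 1.59 lies in the right tail. The ticks of the other 9 genes run from -0.55 (PHLDA1, with 1.82% of all probes lower) to 0.47 (ETV4), nearer to 0 than DUSP6. Each ETV4 probe had at least 98.3% of all probes lower.

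The 2 knockdown clones were next compared with each other, a contrast that did not choose the set and in which ctrl cancels. DUSP6 was lower in sh-G2 than in sh-G1 by a log2 difference of -0.83 (standard error 0.13, 95% interval -1.16 to -0.49), and the difference was the same within each dye, at -0.83 with the clones in Cy5 and -0.82 in Cy3. It did not pass after adjustment over all probes (limma adjusted p = 0.174). SPRY4 differed by -0.72 (standard error 0.19, 95% interval -1.21 to -0.23, limma adjusted p = 0.415). Its gap was -1.04 with the clones in Cy5 and -0.40 in Cy3, so that the size differed between the dye orientations and the direction did not. The ETV4 probes differed by -0.46 (95% interval -0.85 to -0.08, limma adjusted p = 0.559) and -0.40 (95% interval -0.89 to 0.08, limma adjusted p = 0.754). The brightest PHLDA1 probe differed by -0.48 (95% interval -0.80 to -0.16, limma adjusted p = 0.411) and DUSP5 by -0.35 (95% interval -0.60 to -0.10, limma adjusted p = 0.463). For SPRY1 and SPRY2 the intervals ran from -0.40 to 0.29 and from -0.33 to 0.37, and for DUSP4 from -0.32 to 0.25, which leaves room for differences of that size in either direction.

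In all, 12 of the 16 probes were lower in sh-G2 than in sh-G1, against 51.4% of all probes, with a median difference of -0.30 beside -0.00 over all probes. None of the 16 passed the limma test of the difference, with 6 at an unadjusted p under 0.05, all of them lower in sh-G2, and 0.123% of all probes passed, with 7.45% at an unadjusted p under 0.05. The smallest difference that passed anywhere on the array was 1.103, more than any of these probes showed. Probes of the same gene share their transcript and are not independent. The spread behind this test is that between arrays, each clone is a single clone, and the p-values measure only the spread between these samples, which may be technical.

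**Figure D3:**
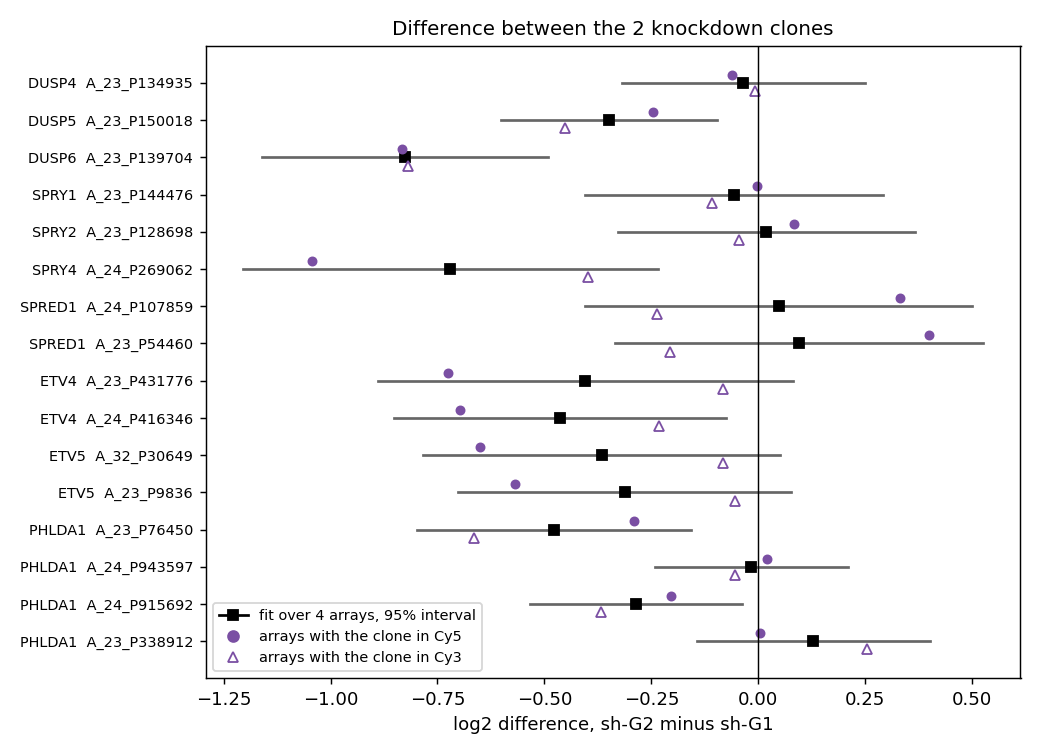
Log2 difference of sh-G2 minus sh-G1 (horizontal axis) for the 16 probes; squares with bars are the fit over 4 arrays with its 95% interval, and purple points are the differences within each dye orientation. The interval of DUSP6, -1.16 to -0.49, lies left of 0 with both dye orientations at the same place, while ETV4, ETV5 and SPRY4 differ more with the clones in Cy5.

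The ratios of these probes moved with the dye orientation. Of the 16, 15 had a higher mean ratio on the arrays with the knockdown clone in Cy3 than on those with it in Cy5, against 55.1% of all probes. For DUSP6 each array deviated from the clone mean by 0.40 on average in this way. The mean of a dye-swapped pair cancels such a shift, and the part of dye in single-array values was not tested.

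Relatives of the 10 genes were then examined, whose values the rule of the set did not use. They were listed with earlier results of these data known. None passed the limma test in the mean of the clones, against 0.838% of all probes. At that share a pass among so few genes would be rare, and nothing is read from this count. Of the phosphatases, DUSP7 stood at a log2 ratio of 0.09 and DUSP9 at -0.09, each the mean of the clones (limma adjusted p = 0.728 and 0.610). SPRY3 stood at 0.03 and 0.04 by its 2 probes (limma adjusted p = 0.844 and 0.853), and SPRED2 at 0.18 and 0.03 (limma adjusted p = 0.357 and 0.860). ETV1, the ETS factor of the same subfamily as ETV4 and ETV5, was above 0 on all 4 arrays by both probes, with means of 0.37 ± 0.05 and 0.32 ± 0.02 (SD, n = 2) and limma adjusted p = 0.142 and 0.157. PHLDA2 stood at -0.09 (limma adjusted p = 0.624).

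Genes of the pathway were then taken from 5 lists of 130 genes. The list of ERK feedback and output genes holds the relatives above, which are thus counted again. Of the 130 genes, 125 were measured, each by its brightest probe. The test passed 0 of them higher and 5 lower, against 0.138% and 0.7% of all probes (0.838% in either direction), with 26 at an unadjusted p under 0.05, against 13.3% of all probes. These counts became 7 higher and 12 lower with the clone as a random block, and 12 passed lower without sh-G1 replicate 2. KITLG, from the list of receptors and ligands, was above 0 on all 4 arrays by its brightest probe. Its mean was 1.18 (limma adjusted p = 0.062), and another of its probes passed higher, at 0.89 (limma adjusted p = 0.023). Of 31 other ERK feedback and output genes measured, such as the immediate early genes FOS and EGR1, 0 passed and 7 had an unadjusted p under 0.05, with means from -0.55 for IL11 to 0.44 for EGR3 and a median of -0.06. FOS, a subunit of AP-1, had log2 ratios of -0.41, -0.49, -0.44 and -0.84 on the 4 arrays (limma adjusted p = 0.101), opposite in sign to DUSP6. EGR3 gave 0.63 and 0.58 in sh-G1 and 0.46 and 0.08 in sh-G2 (limma adjusted p = 0.244), with the same sign as DUSP6. Of 34 genes of the RAS-RAF-MEK-ERK core, 0 passed, with means from -0.23 to 0.27, the highest being MAP2K1, which encodes MEK1. Of 14 other dual specificity phosphatases, 0 passed, with means from -0.40 for DUSP26 to 0.27. FOS, IL11, EGR3, KITLG, MAP2K1 and DUSP26 are named here after their values were seen.

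Of the 5 genes that passed, 4 came from the list of receptors and ligands and 1 from that of ETS factors. FLRT3, a membrane protein that binds FGF receptors, had log2 ratios of -3.91 and -3.21 in sh-G1 and of -3.87 and -3.68 in sh-G2. Its mean of -3.67 ± 0.15 (SD, n = 2, limma adjusted p = 0.018) was the lowest of the lists. PDGFRA, the alpha receptor for platelet-derived growth factor and also one of the fibroblast markers above, had a mean of -1.16 ± 0.07 (limma adjusted p = 0.021), and was at least 1.5-fold lower on every array. FGF18, a ligand of FGF receptors, had a mean of -0.77 ± 0.01 (limma adjusted p = 0.034), while its second probe stood at -0.27 (limma adjusted p = 0.136). IGF1R, the receptor for insulin-like growth factor 1, had a mean of -0.95 ± 0.12 (limma adjusted p = 0.047), its second probe stood at -0.26 (limma adjusted p = 0.170), and the call was lost in 6 of 15 alternatives. ETV7, a repressor of the ETS family, had a mean of -0.69 ± 0.06 (limma adjusted p = 0.038) and was not above background in the knockdown clone on 1 array. If the single ctrl clone is assumed to vary as much as the knockdown clones do, none of the 5 calls holds, with the lowest adjusted p at 0.119 for FLRT3.

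By the count on all 4 arrays, 2 more genes stood out without passing the test. PDGFC, a ligand of PDGFRA, gave 0.65 and 1.52 in sh-G1 and 2.41 and 2.67 in sh-G2. It was the 1 listed gene at least 1.5-fold higher on every array, with a mean of 1.81 ± 1.03 (SD, n = 2, limma adjusted p = 0.234), and it ran opposite to DUSP6 between the clones, by 1.46 (limma adjusted p = 0.124). Its second probe was weaker, at 0.33 (limma adjusted p = 0.465). ELF4, an ETS factor, gave -1.07 and -0.65 in sh-G1 and -1.45 and -1.14 in sh-G2, with a mean of -1.08 ± 0.31 (limma adjusted p = 0.099), while its second probe stood at -0.17 (limma adjusted p = 0.380). FLRT3, PDGFRA and ELF4 were the 3 listed genes at least 1.5-fold lower on every array.

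**Figure D4:**
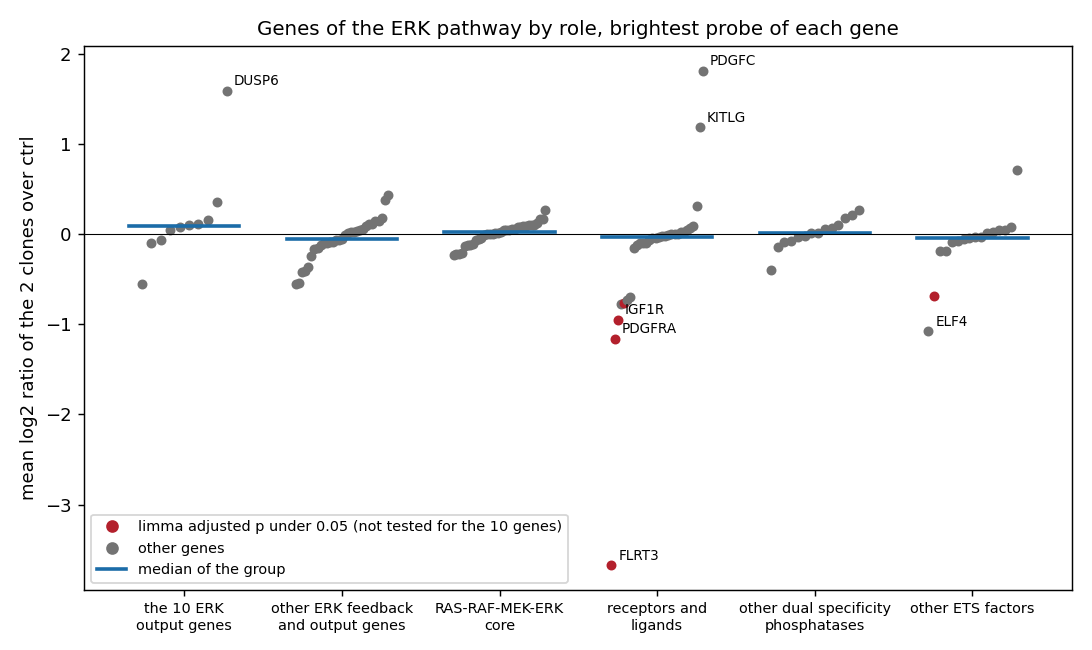
Mean log2 ratio of the 2 knockdown clones over ctrl for the brightest probe of each gene, by group, 1 point per gene; blue lines are medians, and red points passed the limma test (no call is given for the 10 genes). DUSP6, whose ratio chose the set, lies at 1.59, and the points of the core and of the other ERK feedback genes stay between -0.55 and 0.44.

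Between the clones, the 31 other ERK feedback genes had a median difference of -0.13 in sh-G2 minus sh-G1, with 21 of 31 below 0, against 51.4% of all probes. None passed the limma test, against 0.123% of all probes, and 7 had an unadjusted p under 0.05, all lower in sh-G2, against 7.45% of all probes in either direction. EGR1, an immediate early transcription factor, gave 0.45 and 0.34 in sh-G1 and -0.31 and -0.54 in sh-G2, a difference of -0.82 (95% interval -1.17 to -0.47, limma adjusted p = 0.193). SPHK1, a kinase that makes sphingosine 1-phosphate, gave 0.28 and 0.10 in sh-G1 and -0.72 and -0.64 in sh-G2, a difference of -0.86 (95% interval -1.24 to -0.49, limma adjusted p = 0.193). Both genes had their clones on opposite sides of 0, as did SPRY4, and the share of all probes that do so was not counted. They were singled out with their values already in view.

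The genes outside the 10 whose 4 log2 ratios were nearest to those of DUSP6 were then listed. The other 9 genes were left out of this list by its rule, and the DUSP6 values are those that chose the set. Over 16872 genes the nearest, by Euclidean distance over the 4 arrays and the brightest probe of each gene, were DIPK2A (0.44), KCNMB4, a regulatory subunit of the calcium-activated potassium channel (0.44), the transcriptional regulator TSC22D1 (0.96), the co-chaperone DNAJC12 (1.01) and the anthrax toxin receptor ANTXR2 (1.05). KCNMB4 gave 1.86 and 2.68 in sh-G1 and 0.71 and 1.37 in sh-G2, the same order of arrays as DUSP6. Of the other 9 genes, the nearest was ETV4, at a distance of 2.52, with 202 of these genes nearer (1.20%). ETV5 and DUSP5 followed at 3.05 each, with 1372 and 1392 genes nearer (8.13% and 8.25%). PHLDA1 was the farthest, at 4.33, with 16402 genes nearer (97.2%). These distances are descriptions over 4 arrays that share 1 ctrl clone.

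Under other processing DUSP6 kept its sign, and some of the small ratios changed theirs. DUSP6 was chosen on this ratio, so this is a description. Over 12 alternatives, its values ran from 1.61 to 2.40 in sh-G1 and from 0.78 to 1.58 in sh-G2. The mean of DUSP6 ran from 1.39 to 1.79, and the gene stayed at least 1.5-fold above ctrl on every array used. With a threshold of 2-fold it no longer passed on all 4 arrays, since the sh-G2 array with the clone in Cy5 stood at 0.78. The means of SPRY1, SPRY4, SPRED1, ETV5 and 1 PHLDA1 probe changed sign in at least 1 alternative, and those of ETV4, DUSP4, DUSP5, SPRY2 and the other 3 PHLDA1 probes did not.

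**Figure D5:**
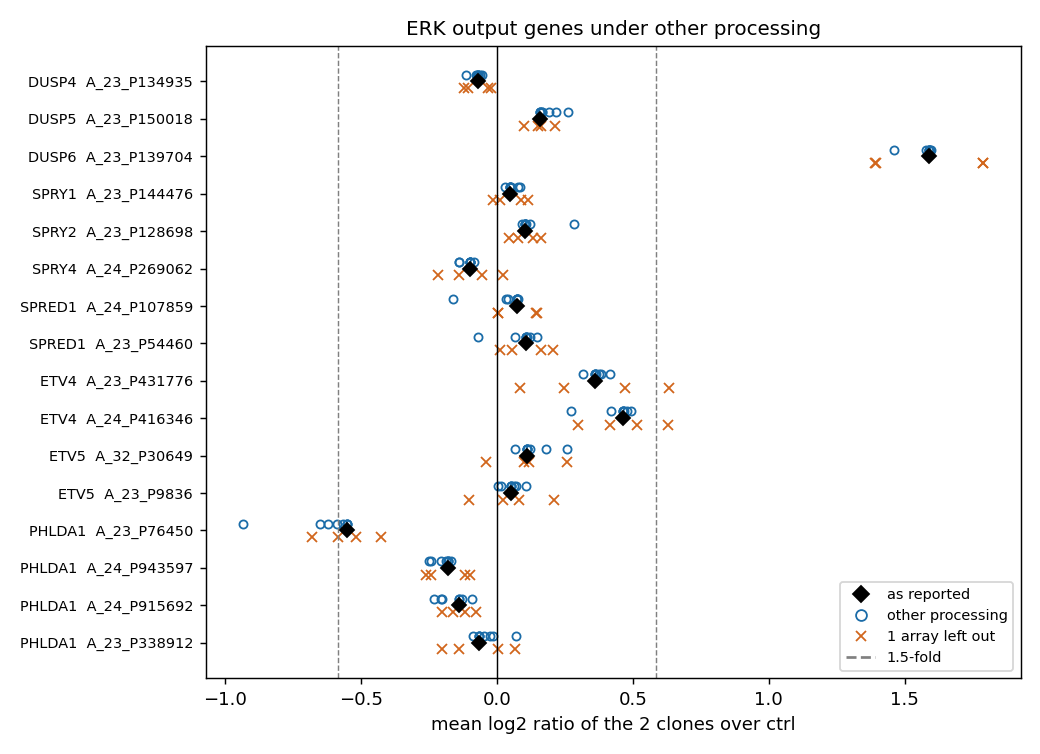
Mean log2 ratio of the 2 knockdown clones over ctrl for the 16 probes as reported (diamonds), under other processing (circles) and with 1 array left out (crosses); dashed lines mark 1.5-fold. DUSP6 stays between 1.39 and 1.79, whereas the marks of SPRY1, SPRY4, SPRED1 and ETV5 lie on both sides of 0.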

How the data were processed

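The authors scanned the arrays and deposited, for each spot, the median intensity and local background of both channels and the log10 ratio of the dye-normalized signals. Agilent Feature Extraction is given as version 8.5.1.1 in the labels and 10.5.1.1 per the file headers. The deposited log10 values of the series matrix hold a ratio for 3 arrays only, without sh-G1 replicate 2, and served as an alternative. The authors' p-values were not used.

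From the intensities, log2 ratios were made with limma 3.58.1 in R 4.3.3, using normexp with an offset of 50 on the median spot signal (no mean signal is given) and loess within arrays. Flagged spots were dropped, spots of a probe averaged, and probes kept where either channel was well above background on each array (39152 of 40905 with a value). Names came from RefSeq (GRCh38.p14), which named 25398 of 41000 probes. Whether the arrays of a clone share an RNA extract is not stated, so each pair counted as 1 replicate in the mean of the clones. The difference of the clones was fitted on single arrays, and its spread is that between arrays.

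The mean of the 2 clones was tested against 0, a test in which the single ctrl clone has no spread, and the difference was fitted on 4 arrays with a dye term, a block on the replicate number (limma, eBayes with trend, Benjamini-Hochberg over all probes kept, threshold 0.05). Genes named were all probes of the 10, family relatives, listed genes that passed the test or were 1.5-fold changed on all 4 arrays, GALNT3 and the 5 nearest to DUSP6. The genes and lists were chosen with earlier results of these data known. The limma fits and the dye-swap average were run on simulated log2 ratios. The simulation left out background correction, loess, flags, averaging of spots and the probe filter, and gave the ctrl clone no spread. The number of arrays limits the precision. Figures used Python 3.11.15 and matplotlib 3.10.9.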

Additional observations from a re-analysis of the deposited data

Results flagged for a closer look

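DCN and LUM, extracellular matrix proteoglycans on the fibroblast marker list, differed between the knockdown clones by the test of the difference. DCN stood at -4.24 in sh-G1 and -2.09 in sh-G2, a difference of 2.15 on the log2 scale (limma adjusted p = 0.030). LUM stood at -4.58 in sh-G1 and -2.04 in sh-G2, a difference of 2.53 (limma adjusted p = 0.018). Each clone is a single clone, and the spread behind this test is that between its 2 arrays only. In both genes sh-G2 was closer to ctrl than sh-G1, and so was DUSP6, from the other side of ctrl. The part of these genes in the DUSP6 values was not tested.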

How the results depend on the processing

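Over 20 settings, 584 values of the 16 probes were recomputed, of which 112 moved by at least 1 SD and 40 changed sign.

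In the mean of the clones, 54 probes passed higher and 274 lower. The ratios of the scanner software gave 118 higher. The series matrix values of 3 arrays gave 213 higher and 790 lower, the clone as a random block 848 and 1721, the 4 arrays taken as independent 152 and 604, and a ctrl clone with the same spread 0 and 0. With 1 array left out the counts ran from 56 to 339 higher and from 322 to 867 lower, being 170 and 460 without sh-G1 replicate 1, 188 and 867 without sh-G1 replicate 2, and 339 and 749 without sh-G2 replicate 1. Of the 16 probes, at 2-fold 0 were higher on all 4 arrays in place of 1. The series matrix values put 1 probe (PHLDA1, A_23_P76450) lower in place of 0, counted over 3 arrays. The array they lack, sh-G1 replicate 2, is the one on which this probe stood at -0.06.

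Among the listed pathway genes, 0 passed higher and 5 lower. Higher counts were 1 with the software's ratios, 1 with the series matrix, 1 with any probe of a gene (KITLG in these 3), 7 with the random block and 0 to 3 with 1 array left out. Lower counts were 10 with the series matrix, 3 with both channels above background, 12 with the random block, 0 with a ctrl clone of the same spread and 4 to 12 with 1 array left out (12 without sh-G1 replicate 2, 9 without sh-G2 replicate 1). Without sh-G1 replicate 1 PDGFC passed higher, without sh-G1 replicate 2 KITLG, and without sh-G2 replicate 1 both of these and ELF1.

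Between the clones 48 probes passed, against 31 with both channels above background. The replicate number marks the dye, so the dye term is a replicate block, and without this block 5 passed. In the mean of the clones the swapped arrays are averaged, which leaves no pair to block. The difference turned to 0.0763 for SPRY1 and to -0.0039 for SPRED1 (A_24_P107859) with the software's ratios. The adjusted p of the DUSP6 difference ran from 0.156 to 1.00. The difference could not be tested with 3 arrays, which leave no residual degrees of freedom. The causes were not tested.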
